A study of Homo sapiens with 44 samples.

Results

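The genes described here are 43 that act at the entry to the secretory pathway, in the endoplasmic reticulum (ER): 13 chaperones and folding helpers, 7 enzymes that make or rearrange disulfide bonds, 5 stress sensors and transcription factors, 5 genes of ER-associated degradation, 10 members of the protein translocation channel and signal peptidase, and 3 KDEL receptors. They were chosen by name, for their known roles and with earlier results of these data known, from a count table of 23368 genes. All 43 were present in the table and all 43 passed the filter on low counts. Their levels were taken from 43 of the 44 libraries of the series. The library labelled enzalutamide 4 was left out, as it held 80142 counts, of which 295 fell on these genes, with 12 of them at 0.

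Secreted and membrane proteins enter the ER through the SEC61 channel, lose their signal peptide, receive glycans and disulfide bonds, and fold with the help of chaperones such as BiP (HSPA5). When unfolded proteins build up, the sensors IRE1 (ERN1), ATF6 and PERK start the unfolded protein response, in which the transcription factors XBP1 and ATF6 raise chaperone and degradation genes through promoter elements known as ERSE and UPRE. Prostate epithelium is a secretory tissue, and androgens are known to raise many genes of the secretory pathway there, CREB3L4 among them.

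RNA was sequenced from tumors that VCaP cells, a human prostate cancer line, formed as xenografts in athymic nude mice (HSD:Athymic Nude–Foxn1nu), which lack mature T cells. All mice of all 3 arms had been castrated, and treatment started once serum PSA had returned to its level before castration, so the vehicle tumors were castration-resistant too. The arms were vehicle (15 tumors), enzalutamide (13 tumors used here) and ARN-509 (15 tumors), with either drug given by gavage at 20 mg/kg/day and tumors taken after 4 weeks. Enzalutamide and ARN-509 (apalutamide) are antiandrogen drugs that share a diarylthiohydantoin core. ARN-509 has a spiro-linked cyclobutane where enzalutamide has a pair of methyl groups, and a pyridine where enzalutamide has a benzene ring. Every library is taken to stand for a tumor of its own mouse, and all tumors come from 1 cell line.

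The promoters of the ER genes were read first for the elements named above, since many of the genes moved together. RefSeq promoters (GRCh38.p14) were found for 40 of the 43 genes, with ERO1L and ERO1LB matched under their current symbols. PDIA3, SPCS1 and KDELR2 had no entry. The window searched ran from 250 bases before to 50 bases after the gene start, on both strands. The letters searched were CCAAT, any 9 bases and CCACG for ERSE, ATTGG, any 1 base and CCACG for ERSE-II, TGACGTGG for UPRE, and CCACG, which is part of both ERSE and ERSE-II. The 250 bases before the start are printed for 7 genes, 5′ to 3′ on the gene's own strand, with ERSE, ERSE-II and UPRE matches in capitals. HSPA5, CALR, HYOU1 and SDF2L1 are shown as genes with a match that fell in ARN-509 tumors, CANX as one with a match that edgeR did not call, ERO1LB as one with a match that rose, and CREB3L4 as one that fell with none of the 3 elements.

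HSPA5 (chr9:125241344-125241593, minus strand): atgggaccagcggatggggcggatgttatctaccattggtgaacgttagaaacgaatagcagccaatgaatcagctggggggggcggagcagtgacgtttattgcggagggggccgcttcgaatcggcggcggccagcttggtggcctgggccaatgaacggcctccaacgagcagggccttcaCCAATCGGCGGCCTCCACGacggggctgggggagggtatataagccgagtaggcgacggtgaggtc
CALR (chr19:12938359-12938608, plus strand): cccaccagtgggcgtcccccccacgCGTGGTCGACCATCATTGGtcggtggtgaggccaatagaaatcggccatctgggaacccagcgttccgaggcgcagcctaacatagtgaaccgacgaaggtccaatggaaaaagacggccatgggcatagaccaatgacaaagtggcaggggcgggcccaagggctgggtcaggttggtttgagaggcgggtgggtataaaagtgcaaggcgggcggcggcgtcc
HYOU1 (chr11:119057206-119057455, minus strand): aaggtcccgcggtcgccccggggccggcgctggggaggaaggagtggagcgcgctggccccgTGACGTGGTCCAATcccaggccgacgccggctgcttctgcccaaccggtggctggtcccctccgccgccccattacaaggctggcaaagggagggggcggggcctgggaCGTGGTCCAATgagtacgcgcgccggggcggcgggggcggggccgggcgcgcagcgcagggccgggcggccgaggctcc
SDF2L1 (chr22:21642052-21642301, plus strand): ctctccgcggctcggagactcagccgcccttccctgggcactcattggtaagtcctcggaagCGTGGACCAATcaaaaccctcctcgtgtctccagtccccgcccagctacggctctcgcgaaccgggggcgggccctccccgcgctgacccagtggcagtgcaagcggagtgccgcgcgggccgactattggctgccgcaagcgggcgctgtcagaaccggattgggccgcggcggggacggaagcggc
CANX (chr5:179698679-179698928, plus strand): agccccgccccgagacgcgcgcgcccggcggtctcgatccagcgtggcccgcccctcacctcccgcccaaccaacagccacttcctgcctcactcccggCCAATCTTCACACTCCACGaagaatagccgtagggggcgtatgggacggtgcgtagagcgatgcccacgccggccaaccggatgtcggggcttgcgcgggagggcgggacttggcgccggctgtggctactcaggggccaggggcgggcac
ERO1LB (chr1:236281959-236282208, minus strand): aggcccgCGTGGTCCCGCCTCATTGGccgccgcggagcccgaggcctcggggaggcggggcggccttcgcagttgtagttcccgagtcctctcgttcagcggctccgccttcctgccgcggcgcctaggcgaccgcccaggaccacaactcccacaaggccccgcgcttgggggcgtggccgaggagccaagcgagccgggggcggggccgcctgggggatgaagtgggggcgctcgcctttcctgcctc
CREB3L4 (chr1:153968000-153968249, plus strand): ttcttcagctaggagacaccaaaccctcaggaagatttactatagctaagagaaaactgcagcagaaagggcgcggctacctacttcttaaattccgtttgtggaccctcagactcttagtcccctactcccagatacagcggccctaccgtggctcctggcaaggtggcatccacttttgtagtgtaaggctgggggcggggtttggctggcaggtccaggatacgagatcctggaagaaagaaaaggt

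An ERSE stood in 7 of the 40 promoters (HSPA5, HSP90B1, CALR, CANX, CRELD2, ERO1LB and XBP1), which is 17.5%, against 0.0806% of 27305 RefSeq promoters of the same length. HSP90B1 held 2. ERSE-II stood in HYOU1, SDF2L1 and HERPUD1 (7.5%, against 0.0549%), with 2 in HYOU1. UPRE stood in HYOU1, DNAJC10 and KDELR3 (7.5%, against 0.795%), and the UPRE of HYOU1 overlaps the ERSE-II farther from the start. The short CCACG stood in 30 promoters (75%, against 37.9%). ERSE or ERSE-II was thus found in 10 of the 40 ER genes (25%) and in 0.136% of all promoters. The elements are known from chaperone and degradation genes, so their higher share among the ER genes is not a finding of these data. These are matches of letters and not shown to be bound sites.

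The libraries held 4187464 to 25849380 counts in the vehicle arm (median 5713659), 4723513 to 16903189 in the enzalutamide arm (median 8623565) and 3377450 to 30125004 in the ARN-509 arm (median 7487470). Vehicle 8 and vehicle 10 stood apart, with a correlation of log2 levels with the mean of the rest of their arm of 0.889 and 0.916, against at least 0.955 for every other library. Vehicle 8 held the highest vehicle level of 21 of the 43 ER genes. Leaving it out gave the largest p, over all libraries left out in turn, for 12 of the 18 ER genes called under ARN-509, and ended 4 of those calls, as given with the genes. The prostate and epithelial markers KLK3, ERG, HOXB13, EPCAM and KRT8 were above 0 in every library. EPCAM, an epithelial surface protein, had medians of 423 CPM (counts per 1000000 counts) in vehicle, 425 in enzalutamide and 409 in ARN-509 tumors, and the prostate factor HOXB13 406, 490 and 436 CPM. Plasma cells are rich in the ER genes studied here. Of their markers, IGJ was at 0 in 30 of the 43 libraries, PRDM1 in 19 and IRF4 in 41. TNFRSF17 (vehicle median 0.222 CPM) and CD79A (0.582 CPM) were at 0 in 4 and 3 libraries. MZB1 was above 0 in every library, with medians of 4.57 CPM in vehicle, 4.05 in enzalutamide and 3.85 in ARN-509 tumors. How mouse reads were treated is not given, so these levels do not show whether plasma cells of the host were present. SDC1, which epithelium also expresses, made up nearly all of the summed list of 7 plasma cell markers, which ran from 83.2 to 680 CPM in vehicle, 218 to 993 in enzalutamide and 120 to 388 in ARN-509 tumors. Its part in the results was not tested. Leukocyte PTPRC was at 0 in 39 libraries, endothelial CDH5 in 36 and fibroblast DCN in 33. The 8 leukocyte markers summed to 4.08 to 10.4 CPM in vehicle, 4.51 to 9.75 in enzalutamide and 4.62 to 11.2 in ARN-509 tumors. The 8 endothelial markers summed to 42.4 to 64.2, 33.9 to 55.3 and 30 to 48.9 CPM in the same order, nearly all of it ENG (medians 45.7, 41.9 and 34.7 CPM), which was above 0 in every library, while VWF had medians of 3.15, 0.354 and 0.185 CPM. The 10 fibroblast markers summed to 8.14 to 37.5, 6.48 to 25.3 and 6.03 to 24.5 CPM, with PDGFRA at medians of 5.49, 1.78 and 1.89 CPM and FBN1 at 5.04, 2.44 and 2.41 CPM. The part of these differences in the results was not tested. ALB, a hepatocyte gene, reached 620 CPM in enzalutamide 2, against at most 10.8 CPM in every other library. The hepatocyte genes TTR, SERPINA1, APOA1 and FGB were not high with it. They reached at most 5.56, 4.32, 0.8 and 0 CPM in enzalutamide tumors, against 5.53, 9.31, 0.582 and 0 CPM in vehicle tumors.

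In vehicle tumors the ER genes took a median of 1.24% of all CPM. Per kilobase of transcript, the levels ran from 765 ± 195 CPM per kb (SD, n = 15) for CALR, the lectin chaperone calreticulin, down to 0.79 ± 0.354 for KDELR3. HSP90B1 (650 ± 140), P4HB (483 ± 85.5), CANX (440 ± 60) and HSPA5 (292 ± 83.3) followed CALR, in that order. CALR and HSP90B1 differed by less than their SD, as did P4HB and CANX, while HSP90B1 lay above P4HB and CANX above HSPA5 by more than either SD. SSR2 (246 ± 49.3) and KDELR1 (186 ± 36) were the highest of the translocation genes and of the KDEL receptors. The sensor ERN1 was low, at 3.07 ± 1.62 CPM per kb.

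Under ARN-509 many of the ER genes were lower than with vehicle, most of all chaperones and disulfide isomerases, while with enzalutamide they lay near the vehicle level. In edgeR's quasi-likelihood test, with Benjamini-Hochberg adjustment over all 13520 genes tested, 15 of the 43 fell in ARN-509 tumors and 3 rose (ERO1LB, ATF6 and SSR1), with a median log2 fold change of -0.14. Of all genes tested, 16.1% fell and 14.7% rose in that comparison (30.8% called), with a median of 0.00. With enzalutamide, 1 of the 43 rose (FKBP11) and 2 fell (DNAJC10 and CREB3L4), beside 10.8% of all genes called (5.1% higher, 5.67% lower), and the median was 0.00. For 42 of the 43, the 95% interval of enzalutamide against vehicle lay within 1.5-fold of equality, as it did for 11292 of all 13520 genes tested. CREB3L4 was the 1 gene of the 43 that fell under both drugs. In bulk tumors, fewer cells of a type and less RNA per cell cannot be told apart.

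The drugs were then set side by side at matched dose and duration, as 1 pair of compounds over the 43 genes. Of these, 22 were higher under enzalutamide than under ARN-509 and 2 were lower (DNAJC10 and ERO1L), with a median log2 difference of 0.23. Among all genes tested, 12.2% were higher and 14.6% lower (26.8% called), with a median of 0.01. The 22 were 9 chaperones, 4 disulfide isomerases, 2 genes of degradation, 6 of the channel and signal peptidase, and KDELR1. Once the dependence of each library on GC content and length of the transcript was taken out, 11 were higher and 0 lower in edgeR, as described with the GC values below. For 19 genes the drugs did not differ beyond the test, which does not show that they act alike. For 33 of the 43 the interval stayed within 1.5-fold of equality, as it did for 11286 of all 13520 genes tested. This comparison shares its ARN-509 tumors with that of ARN-509 and vehicle, so the counts of one are tied to those of the other. The CPM ranges of 2 arms were apart for 0 of the 43 genes in any comparison, against 0.0296% (higher) and 0.037% (lower) of all genes for enzalutamide and vehicle, 0.118% and 0.0666% for ARN-509 and vehicle, and 0% and 0.0148% for enzalutamide and ARN-509.

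With library totals in place of TMM scaling, calls over all genes split 838 higher and 600 lower for enzalutamide (689 and 766 with TMM), 2713 and 1466 for ARN-509 (1988 and 2178), and 1202 and 2263 between the drugs (1647 and 1976). The ER genes then split 1 and 2, 4 and 13, and 19 and 2 in the same order.

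**Figure D1:**
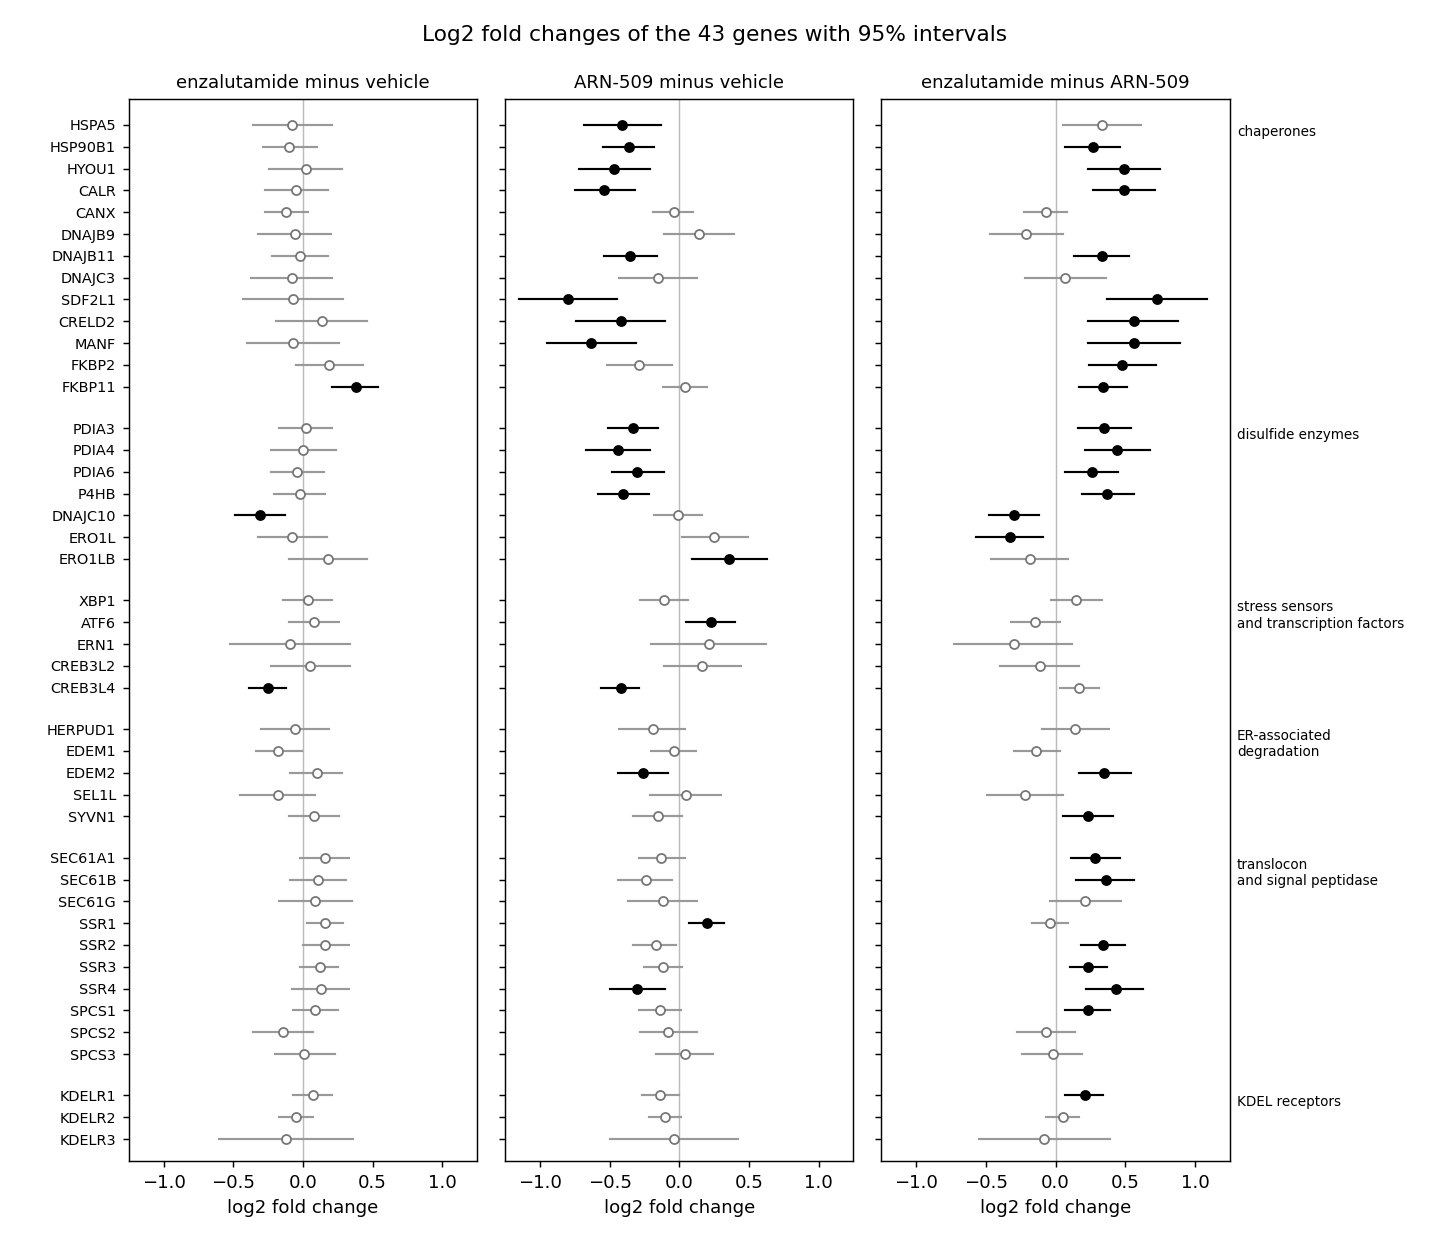
Log2 fold change (x axis) with its 95% interval for each of the 43 ER genes (rows, by role) in the 3 comparisons; filled black points passed an adjusted p of 0.05 in edgeR. In the middle panel 15 genes lie to the left and 3 to the right, and in the right panel 22 lie to the right and 2 to the left.

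Among the chaperones, 8 of 13 fell under ARN-509 and 9 were higher under enzalutamide than under ARN-509 (medians -0.36 and 0.34). With enzalutamide against vehicle edgeR called 1 higher and left 12 uncalled (median -0.06), while limma voom called 2 higher, FKBP2 the second (0.27, adjusted p = 0.0428). Over all genes limma voom called 1316 higher and 1235 lower in that comparison. HSPA5 encodes BiP, the ER member of the HSP70 family that holds the sensors inactive. Its level was lowest, median and highest at 551, 1163 and 2092 CPM in vehicle tumors, 674, 1065 and 1772 CPM in enzalutamide tumors, and 572, 818 and 1303 CPM in ARN-509 tumors. The ranges overlapped, and 13 of 15 ARN-509 tumors lay below the vehicle median. HSPA5 fell by 0.41 ± 0.14 on the log2 scale under ARN-509 (SE, adjusted p = 0.0202), to 0.755 of the vehicle level. Vehicle 8, at 2092 CPM, stood far above the next vehicle tumor at 1326 CPM, and without it the change was -0.33 (adjusted p = 0.0548). Enzalutamide against vehicle gave -0.08 (interval -0.36 to 0.21), and enzalutamide against ARN-509 gave 0.33 (interval 0.05 to 0.61, adjusted p = 0.071).

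HSP90B1, the ER form of HSP90 (GRP94), ran at 1306, 1905 and 2990 CPM with vehicle, 1384, 1705 and 2287 CPM with enzalutamide and 1063, 1434 and 2018 CPM with ARN-509 (lowest, median, highest). It was below the vehicle median in 14 of 15 ARN-509 tumors and fell by 0.36 ± 0.09 (adjusted p = 0.00302), or by 0.31 without vehicle 8. Between the drugs its difference was 0.27 ± 0.10 (adjusted p = 0.0376), a call that ended in 7 of 28 fits with 1 library left out, with the largest p without enzalutamide 9 (0.23, adjusted p = 0.0851). CALR, which holds glycoproteins and calcium, ran at 977, 1394 and 2431 CPM with vehicle, 914, 1385 and 1998 CPM with enzalutamide and 737, 945 and 1361 CPM with ARN-509. Every ARN-509 tumor lay below the vehicle median of CALR, although the ranges overlapped. CALR fell by 0.54 ± 0.11 (adjusted p = 0.000197) and was 0.49 ± 0.11 higher under enzalutamide than under ARN-509 (adjusted p = 0.00377). Its membrane-bound relative CANX (calnexin) did not follow: 1279, 1906 and 2282 CPM with vehicle stood beside 1276, 1835 and 2523 CPM with ARN-509, a difference of -0.04 (interval -0.19 to 0.10).

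SDF2L1, a small partner of the ER HSP40 proteins, had the largest change of the 43 genes in edgeR's fit under ARN-509, although with GC and length trends removed it was level with HSPA5 (both -0.48). It ran at 12, 28.6 and 78 CPM with vehicle, 18.7, 26.2 and 54 CPM with enzalutamide and 10.1, 16.3 and 26.1 CPM with ARN-509. All 15 ARN-509 tumors were below the vehicle median and all 13 enzalutamide tumors were above the ARN-509 median. SDF2L1 fell by 0.80 ± 0.17 under ARN-509 (adjusted p = 0.000626), to 0.573 of the vehicle level, and was 0.73 ± 0.18 higher under enzalutamide than under ARN-509 (adjusted p = 0.00515). Without vehicle 8, which held the 78 CPM, the change was -0.64 (adjusted p = 0.00176). MANF, a secreted factor that stays bound to BiP in the ER, ran at 91.7, 198 and 532 CPM with vehicle, 132, 190 and 334 CPM with enzalutamide and 87.8, 127 and 202 CPM with ARN-509. It was low in 14 of 15 ARN-509 tumors against the vehicle median, and fell by 0.63 ± 0.16 (adjusted p = 0.00264). Vehicle 8 held the 532 CPM, against 268 for the next vehicle tumor, and without it the change was -0.47 (adjusted p = 0.00771). CRELD2, an ER stress-induced folding helper, fell by 0.42 ± 0.16 (adjusted p = 0.0392), but 11 of 30 fits with 1 library left out ended that call, the largest p being without vehicle 8 (-0.37, adjusted p = 0.0823).

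HYOU1, the large HSP70-type chaperone GRP170 that exchanges nucleotide on BiP, ran at 220, 364 and 492 CPM with vehicle, 213, 374 and 627 CPM with enzalutamide and 190, 264 and 386 CPM with ARN-509. It fell by 0.47 ± 0.13 (adjusted p = 0.00447), with 14 of 15 ARN-509 tumors below the vehicle median. DNAJB11, an HSP40 partner of BiP, fell by 0.35 ± 0.10 (adjusted p = 0.00532), or by 0.29 without vehicle 8, and all 13 enzalutamide tumors were above its ARN-509 median. The other HSP40 partners were not called by edgeR: DNAJB9 differed by 0.14 (interval -0.11 to 0.39) and DNAJC3 by -0.15 (interval -0.43 to 0.13) under ARN-509. Between the drugs limma voom called DNAJB9 lower under enzalutamide (-0.30, adjusted p = 0.0367), where edgeR gave -0.21 (interval -0.47 to 0.05). The peptidyl-prolyl isomerase FKBP11 was the chaperone group's exception with enzalutamide. It ran at 59.9, 83.8 and 112 CPM with vehicle, 81.2, 106 and 132 CPM with enzalutamide and 67.6, 86 and 103 CPM with ARN-509. In 12 of 13 enzalutamide tumors it was above the vehicle median, and it rose by 0.38 ± 0.08 (adjusted p = 0.00114). FKBP2, a related isomerase, was 0.48 ± 0.12 higher under enzalutamide than under ARN-509 (adjusted p = 0.00566), with 0.19 and -0.29 for enzalutamide and ARN-509 against vehicle (adjusted p = 0.339 and 0.0528).

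**Figure D2:**
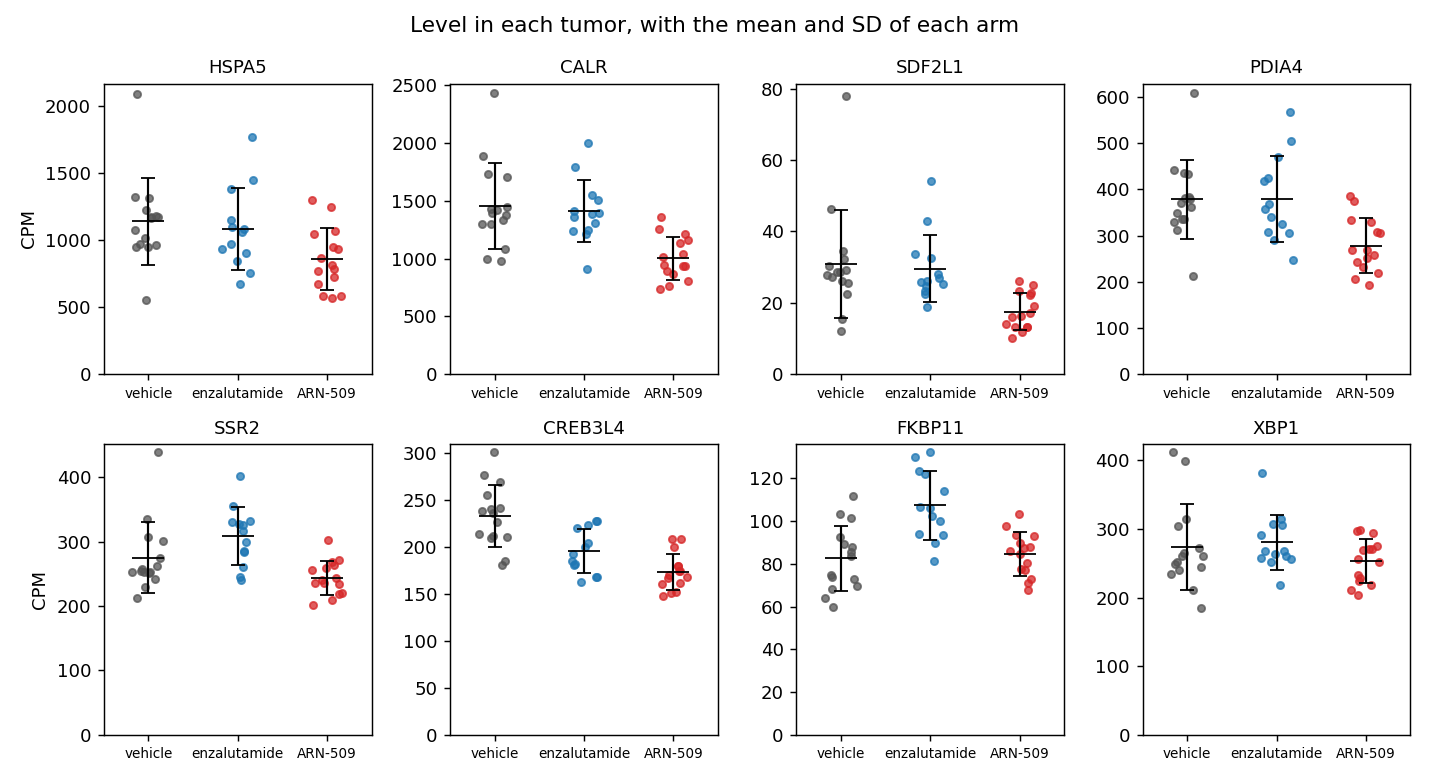
CPM (y axis) of 8 ER genes in each tumor, by arm, with the mean (wide mark) and SD (bar). For SDF2L1 and CALR all 15 ARN-509 tumors lie under the vehicle median, while for XBP1 the arms lie together, and 1 vehicle tumor stands high at 2092 CPM for HSPA5.

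Of the 7 disulfide enzymes, the 4 classical protein disulfide isomerases fell under ARN-509, while the oxidases that recharge them did not. P4HB (PDI), which is also the beta subunit of collagen prolyl hydroxylase, ran at 969, 1211 and 1749 CPM with vehicle, 809, 1181 and 1770 CPM with enzalutamide and 719, 938 and 1272 CPM with ARN-509. It fell by 0.40 ± 0.09 (adjusted p = 0.000905), with 14 of 15 tumors below the vehicle median. PDIA4 (ERp72) fell by 0.44 ± 0.11 (adjusted p = 0.00295), from a median of 371 to 268 CPM. PDIA3 (ERp57), which acts on glycoproteins held by CALR and CANX, fell by 0.33 ± 0.09 (adjusted p = 0.0053), and PDIA6 fell by 0.30 ± 0.09 (adjusted p = 0.0129). Without vehicle 8, PDIA4 stood at -0.39 and PDIA3 at -0.27, both still called. With enzalutamide these 4 lay between -0.04 and 0.02 of vehicle and were not called by edgeR.

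All 4 isomerases were higher under enzalutamide than under ARN-509, by 0.44 ± 0.12 for PDIA4, 0.37 ± 0.09 for P4HB, 0.35 ± 0.09 for PDIA3 and 0.26 ± 0.09 for PDIA6. PDIA3 was above the ARN-509 median in 13 of 13 enzalutamide tumors. The PDIA6 call (adjusted p = 0.039) ended in 13 of 28 fits with 1 library left out, the largest p being without enzalutamide 1 (0.22, adjusted p = 0.0839).

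The thiol oxidases ERO1L and ERO1LB did not fall. ERO1LB rose by 0.36 ± 0.13 under ARN-509 (adjusted p = 0.0362), at 11.7, 24.4 and 45.9 CPM with vehicle against 24.3, 36 and 47.4 CPM with ARN-509. The lowest ARN-509 tumor was thus near the vehicle median, with 14 of 15 above it. Its call ended in 12 of 30 fits with 1 library left out, the largest p being without vehicle 8 (0.31, adjusted p = 0.0765). ERO1L stood at 0.25 (adjusted p = 0.089) under ARN-509 and was 0.33 ± 0.12 lower under enzalutamide than under ARN-509 (adjusted p = 0.0363). That call ended in 10 of 28 such fits, the largest p being without enzalutamide 5 (-0.28, adjusted p = 0.0723). DNAJC10 (ERdj5), a reductase that opens disulfides before degradation, fell with enzalutamide by 0.31 ± 0.09 (adjusted p = 0.0172). It ran at 89.9, 133 and 184 CPM with vehicle, 87.9, 107 and 142 CPM with enzalutamide and 104, 133 and 175 CPM with ARN-509, so that the enzalutamide tumors were low and the other arms had the same median. With enzalutamide 4 taken in as well, its change was -0.15 (adjusted p = 0.725).

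Of the 5 stress sensors and transcription factors, CREB3L4 fell and ATF6 rose under ARN-509, and edgeR called neither XBP1, ERN1 nor CREB3L2. XBP1, the factor spliced by IRE1, ran at 185, 260 and 412 CPM with vehicle, 218, 267 and 381 CPM with enzalutamide and 203, 257 and 298 CPM with ARN-509. It differed by 0.04 (interval -0.14 to 0.21) with enzalutamide and by -0.11 (interval -0.28 to 0.06) with ARN-509. Gene counts do not tell spliced from unspliced XBP1 RNA. The kinase ERN1 (IRE1 alpha) had wide intervals, -0.52 to 0.34 with enzalutamide and -0.20 to 0.62 with ARN-509. ATF6, a membrane-bound factor released by cleavage, rose under ARN-509 by 0.23 ± 0.09 (adjusted p = 0.0396), at 40.7, 58.5 and 80.1 CPM with vehicle against 52.5, 72 and 94.9 CPM. The ATF6 call ended in 14 of 30 fits with 1 library left out, the largest p being without vehicle 8 (0.19, adjusted p = 0.0896). CREB3L2, of the same family as CREB3L4, differed by 0.05 and 0.16 from vehicle with enzalutamide and ARN-509.

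CREB3L4 (AIbZIP), a membrane-bound transcription factor known for its expression in prostate and for androgen regulation, ran at 181, 236 and 301 CPM with vehicle, 163, 192 and 228 CPM with enzalutamide and 148, 171 and 209 CPM with ARN-509. All 13 enzalutamide tumors and all 15 ARN-509 tumors were below the vehicle median, with overlapping ranges. CREB3L4 fell by 0.25 ± 0.07 with enzalutamide (adjusted p = 0.0101) and by 0.42 ± 0.07 with ARN-509 (adjusted p = 4.44e-06). Between the drugs the difference was 0.17 (interval 0.03 to 0.31, adjusted p = 0.0574). The other 4 sensors and factors were also not called by edgeR between the drugs. Of the 5 in all, 1 had an unadjusted p under 0.05 in edgeR, DESeq2 called 0, and limma voom with quality weights called 2. Those 2 were CREB3L4 (0.17, limma voom adjusted p = 0.0139) and ERN1 (-0.40, limma voom adjusted p = 0.0451). Of all 13520 genes tested, 2693 were higher and 2825 lower at the unadjusted threshold, DESeq2 called 3943 and limma voom 5718.

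In ER-associated degradation, which extracts misfolded proteins to the proteasome, 1 of 5 genes fell under ARN-509. EDEM2, a mannosidase that marks glycoproteins for disposal, ran at 15.7, 21.5 and 29.5 CPM with vehicle and 12.1, 17.6 and 21.6 CPM with ARN-509, and fell by 0.26 ± 0.09 (adjusted p = 0.0247). It was below the vehicle median in 14 of 15 tumors and was 0.35 ± 0.09 higher under enzalutamide than under ARN-509 (adjusted p = 0.00656). SYVN1 (HRD1), the ubiquitin ligase of the pathway, was 0.23 ± 0.09 higher under enzalutamide than under ARN-509 (adjusted p = 0.0477), but 16 of 28 fits with 1 library left out ended that call. Without enzalutamide 1, at 449 CPM the highest of its arm, it was 0.14 (adjusted p = 0.156). HERPUD1, EDEM1 and SEL1L, the adaptor that holds SYVN1, were not called by edgeR, with -0.19, -0.04 and 0.05 under ARN-509 and -0.06, -0.18 and -0.18 with enzalutamide. Between the drugs limma voom called EDEM1 (-0.17, adjusted p = 0.0465) and SEL1L (-0.29, adjusted p = 0.0327) lower under enzalutamide.

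At the channel, 6 of the 10 genes were higher under enzalutamide than under ARN-509, while against vehicle 1 rose and 1 fell under ARN-509. The medians were 0.23 between the drugs, -0.12 for ARN-509 and 0.11 for enzalutamide against vehicle. SSR2, the beta subunit of the translocon-associated protein complex (TRAP), ran at 212, 255 and 439 CPM with vehicle, 241, 317 and 402 CPM with enzalutamide and 201, 241 and 302 CPM with ARN-509. All 13 enzalutamide tumors were above the ARN-509 median, the vehicle tumors lay between the drugs in median, and the ranges overlapped. SSR2 was 0.34 ± 0.08 higher under enzalutamide than under ARN-509 (adjusted p = 0.00471). Against vehicle it stood at 0.16 with enzalutamide (adjusted p = 0.198) and -0.17 with ARN-509 (adjusted p = 0.0832).

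SSR4, the delta subunit of TRAP, ran at 179, 254 and 463 CPM with vehicle, 212, 313 and 373 CPM with enzalutamide and 176, 222 and 266 CPM with ARN-509. It fell under ARN-509 by 0.30 ± 0.10 (adjusted p = 0.0186) and was 0.43 ± 0.10 higher under enzalutamide than under ARN-509 (adjusted p = 0.00471). SSR1, the alpha subunit, went the other way under ARN-509, with a rise of 0.20 ± 0.06 (adjusted p = 0.0165). Without vehicle 8, SSR4 stood at -0.23 (adjusted p = 0.0456) and SSR1 at 0.17 (adjusted p = 0.0372). The subunits of 1 complex thus differed in direction, a difference that ended once trends with GC content and length were removed (SSR1 at 0.00, SSR4 at -0.10). SEC61A1, the pore itself, was 0.28 ± 0.09 higher under enzalutamide than under ARN-509 (adjusted p = 0.0155), SEC61B was 0.36 ± 0.10 higher (adjusted p = 0.0112), and SEC61G at 0.21 was not called by edgeR (interval -0.04 to 0.47). Of the signal peptidase, which cuts the signal peptide, the non-catalytic SPCS1 was 0.23 ± 0.08 higher (adjusted p = 0.0272), with a call that ended without enzalutamide 11 (0.21, adjusted p = 0.0539). SPCS2 and SPCS3 stood at -0.07 and -0.02.

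With enzalutamide against vehicle edgeR called 0 of the 10 channel genes, with 2 at an unadjusted p under 0.05, DESeq2 called 0 and limma voom called 1. Of all 13520 genes tested, 1579 were higher and 1687 lower at the unadjusted threshold, DESeq2 called 1628 and limma voom 2551. KDEL receptors return chaperones with a KDEL-type tail from the Golgi. Of the 3, KDELR1 was 0.21 ± 0.07 higher under enzalutamide than under ARN-509 (adjusted p = 0.025), a call that ended without enzalutamide 9 (0.19, adjusted p = 0.0501). KDELR2 stood at 0.05 (interval -0.07 to 0.17), and KDELR3, at a median of 1.24 CPM in vehicle tumors, had an interval too wide to place (-0.55 to 0.39).

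**Figure D3:**
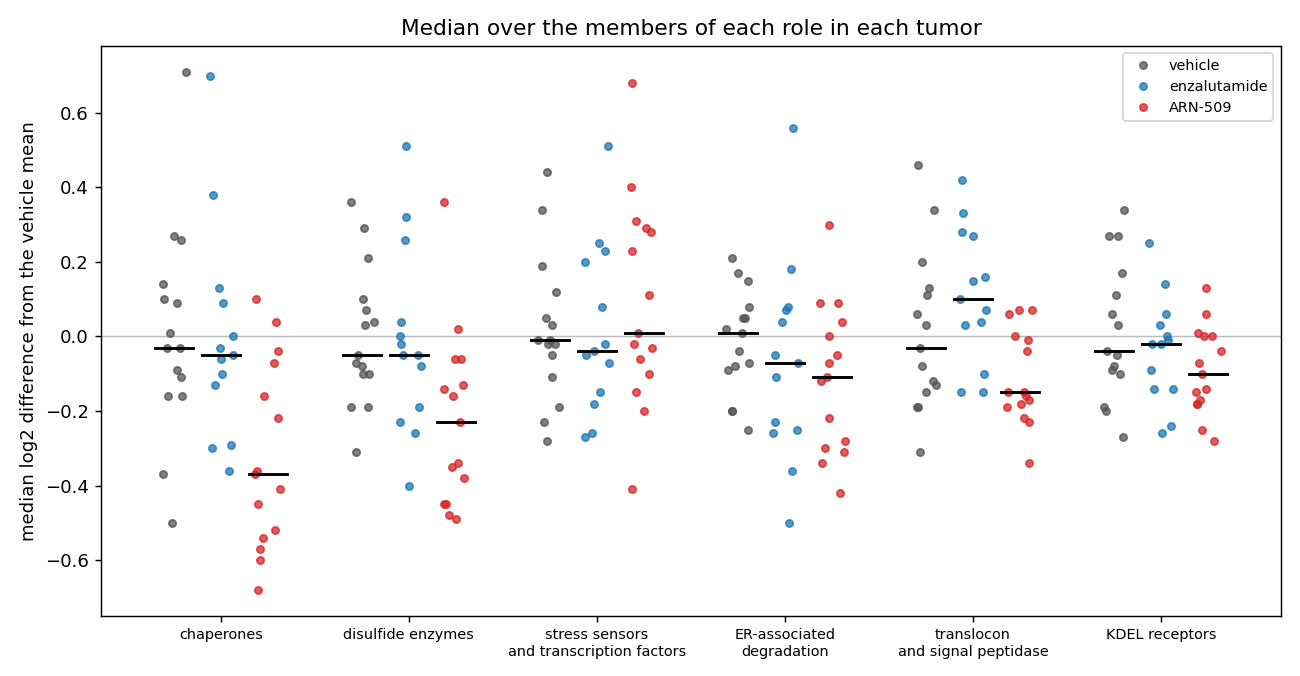
Median over the genes of each role of the log2 difference from the vehicle mean (y axis), 1 point per tumor, with black lines at the arm medians. For chaperones the ARN-509 median is -0.37 against -0.03 for vehicle, and 13 of 15 ARN-509 tumors lie below the vehicle median, while the medians of the stress sensors are -0.01, -0.04 and 0.01 in vehicle, enzalutamide and ARN-509.

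Within single tumors, the median log2 difference of the 13 chaperones from the vehicle mean was -0.50, -0.03 and 0.71 in vehicle tumors (lowest, median, highest), -0.36, -0.05 and 0.70 in enzalutamide tumors and -0.68, -0.37 and 0.10 in ARN-509 tumors. The highest vehicle tumor was vehicle 8, the lowest vehicle 13, and enzalutamide 1 stood as high as vehicle 8. Disulfide enzymes had medians of -0.05, -0.05 and -0.23 in the same order of arms, and the sensors -0.01, -0.04 and 0.01. For the channel genes the enzalutamide tumors were high, with 3 of 13 below the vehicle median, and 10 of 15 ARN-509 tumors were below it. The share of all CPM on the 43 genes was below the vehicle median of 1.24% in 14 of 15 ARN-509 tumors (median 1.02%) and in 8 of 13 enzalutamide tumors (median 1.2%). Without vehicle 8 and vehicle 10 together, an alternative chosen after seeing the data, the 43 genes gave 3 higher and 14 lower under ARN-509, 2 and 2 with enzalutamide, and 24 and 2 between the drugs. Over all genes that fit called 2056 higher and 2021 lower under ARN-509, 820 and 846 with enzalutamide, and 2129 and 2316 between the drugs. Calls between the drugs thus rose over all genes too, to 4445 from 3623.

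The genes with an ERSE or ERSE-II match were set beside those without one. Under ARN-509, 6 of the 10 with a match fell and 1 rose (median -0.39), and of the 30 with neither 8 fell and 2 rose (median -0.12). Of all genes tested, 16.1% fell and 14.7% rose. The 6 were HSPA5, HSP90B1, HYOU1, CALR, SDF2L1 and CRELD2, all chaperones, so the match and the role go together here. CANX, XBP1 and HERPUD1 had a match and were not called by edgeR, ERO1LB had a match and rose, and MANF, DNAJB11, PDIA4, PDIA6, P4HB, CREB3L4, EDEM2 and SSR4 fell with neither element in the window. With GC and length trends removed, the calls of CRELD2, ERO1LB, EDEM2, SSR4, ATF6 and SSR1 ended. CANX (-0.15, edgeR adjusted p = 0.0364), DNAJC10 and SSR3 were then called lower and FKBP11 higher.

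Tumors of the same arm were then compared, to see whether ER genes varied together with HSPA5 under the same treatment. HSPA5 was related to 6 other genes in each arm, 18 relations in all, on log2 CPM, with two-sided permutation p-values adjusted over the 18. P-values are those of Pearson's r unless rho is named. Of the 18 relations, 12 passed by r. By rho, those of SDF2L1 and SEC61A1 in vehicle tumors did not pass, as given below. HSP90B1 followed HSPA5 in every arm: Pearson's r was 0.83 in vehicle (rho 0.72, permutation p = 0.00066, adjusted 0.0017), 0.78 in enzalutamide (rho 0.80, permutation p = 0.0018, adjusted 0.0037) and 0.78 in ARN-509 tumors (rho 0.78, permutation p = 0.00065, adjusted 0.0017). Without the 2 tumors of each arm farthest from the HSPA5 median, r was 0.53, 0.89 and 0.87. In the vehicle arm those tumors were vehicle 8 and vehicle 13, and the vehicle relation then had a permutation p of 0.062, so it rests on them in part. With GC and length trends removed, it was 0.56 without them (permutation p = 0.046).

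SDF2L1 had an r of 0.85, 0.82 and 0.69 with HSPA5 in vehicle, enzalutamide and ARN-509 tumors (rho 0.46, 0.79 and 0.69; adjusted permutation p = 0.0023, 0.0017 and 0.0076). The rho in vehicle tumors did not pass (adjusted permutation p of rho = 0.12). On unadjusted levels the vehicle relation rested on vehicle 8 and vehicle 13, as r without them was 0.41 (permutation p = 0.17). With GC and length trends removed it did not, as r was 0.90 (rho 0.81) and 0.77 without them (permutation p = 0.0019). Without the farthest 2 tumors, r in the drug arms was 0.60 and 0.55 (permutation p = 0.053 and 0.051). SEC61A1 had an r of 0.69, 0.85 and 0.71 (rho 0.55, 0.94 and 0.80; adjusted permutation p = 0.0076, 0.0017 and 0.0046). Its rho in vehicle tumors did not pass (adjusted permutation p of rho = 0.058). Without the farthest 2 tumors r was 0.21 in vehicle (permutation p = 0.49), 0.79 in enzalutamide and 0.77 in ARN-509. XBP1 had an r of 0.79, 0.55 and 0.80 (rho 0.70, 0.30 and 0.79; adjusted permutation p = 0.0017, 0.071 and 0.0017), and 0.50, 0.60 and 0.78 without those tumors.

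DNAJB9 followed HSPA5 in ARN-509 tumors, with an r of 0.82 (rho 0.82, adjusted permutation p = 0.0017) and 0.71 without the farthest 2. In vehicle and enzalutamide tumors its r was 0.26 and 0.44 (adjusted permutation p = 0.41 and 0.17), and the difference between arms was not tested. CREB3L4 did not follow HSPA5 in any arm, with an r of 0.29, -0.08 and -0.21 (rho 0.21, -0.11 and -0.11; adjusted permutation p = 0.36, 0.79 and 0.48). Tumors of 1 arm differ also in depth and in GC trend, and with the trend removed 13 of the 18 relations passed by r.

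**Figure D4:**
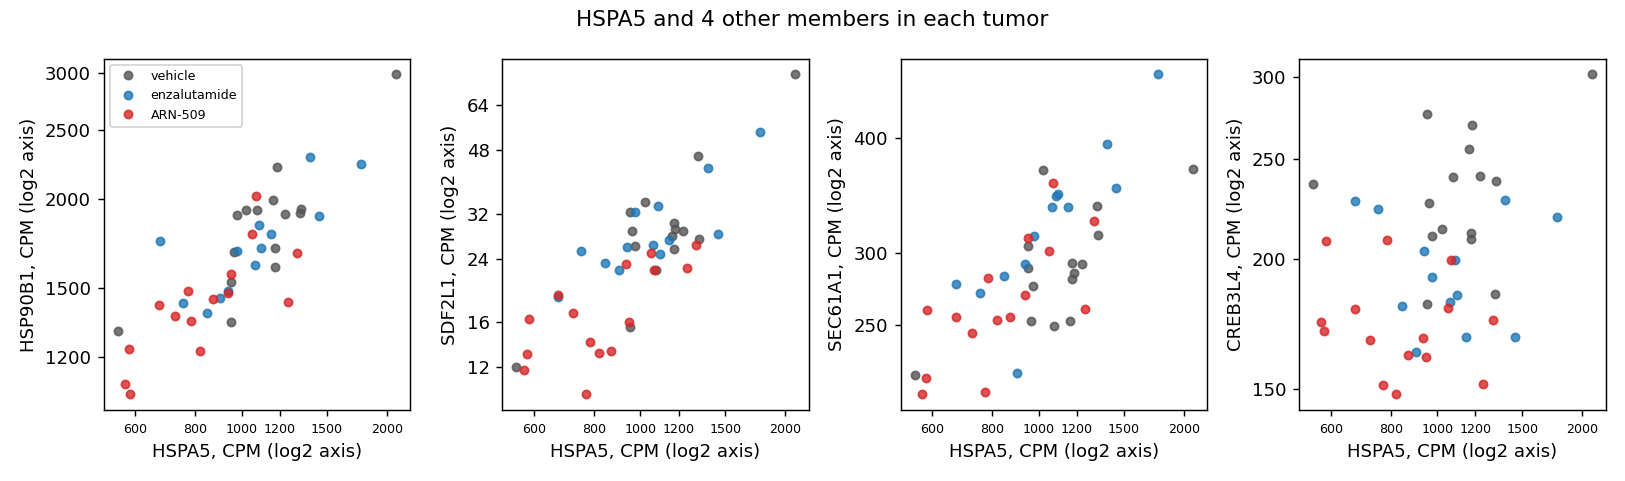
CPM of HSPA5 (x axis) against CPM of 4 other ER genes (y axes), both on log2 axes, 1 point per tumor, coloured by arm. HSP90B1 rises with HSPA5 in each arm (r = 0.83, 0.78 and 0.78), CREB3L4 does not (0.29, -0.08 and -0.21), and vehicle 8 is the point at 2092 CPM.

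Fold changes moved with the base composition of the transcripts. Across genes, which are not independent replicates, Spearman's rho between log2 fold change and GC content was 0.21, -0.42 and 0.61 over all genes with a value (12947 genes) and 0.36, -0.63 and 0.75 over the 43 ER genes, for enzalutamide against vehicle, ARN-509 against vehicle and enzalutamide against ARN-509. With transcript length it was -0.20, 0.32 and -0.52 over all genes and -0.34, 0.51 and -0.64 over the 43. The median GC content was 48.1% for the 43 and 49.3% for all genes. SDF2L1, with the largest change, had the highest GC content of the 43 (65.5%), and ERO1LB, which rose, a low one (37%), while HSP90B1 and PDIA3 fell with 42.4% and 43.8%.

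The libraries' own slopes of log2 level on GC content per 10 percentage points had medians of -0.00896 in vehicle, 0.0315 in enzalutamide and -0.0779 in ARN-509, with vehicle 8 (0.278) and enzalutamide 9 (0.326) the steepest of their arms. Once the linear dependence of each library on GC content and log2 length was taken out, 16 of the 43 were lower and 1 higher under ARN-509. Over the 12947 genes with a value, 2001 were lower and 1674 higher in that fit. Of the 15 that fell before, 12 were among the 16: HSPA5 (-0.48 ± 0.14, adjusted p = 0.0102), HSP90B1 (-0.44 ± 0.10), HYOU1, CALR (-0.44 ± 0.09), DNAJB11, SDF2L1 (-0.48 ± 0.14, adjusted p = 0.0075), MANF (-0.47 ± 0.14), PDIA3, PDIA4, PDIA6, P4HB and CREB3L4 (-0.34 ± 0.05, adjusted p = 4.45e-06). CRELD2 (-0.24), EDEM2 (-0.18) and SSR4 (-0.10) no longer passed (adjusted p = 0.206, 0.147 and 0.206), and CANX, DNAJC10, SSR3 and KDELR2 were added. The 3 rises ended: ERO1LB at 0.22, ATF6 at 0.08 and SSR1 at 0.00 (adjusted p = 0.165, 0.28 and 0.972). FKBP11 was then higher under ARN-509 (0.20, adjusted p = 0.0151).

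Between the drugs the removal ended more calls. Of the 22 genes that were higher with enzalutamide, 10 remained (HSP90B1, HYOU1, CALR, DNAJB11, PDIA3, PDIA4, SEC61A1, SSR2, SSR3 and SPCS1), SSR1 was added, and neither of the 2 lower ones remained. SDF2L1 was then at 0.35 (adjusted p = 0.102), MANF at 0.38 (adjusted p = 0.0864), P4HB at 0.23 (adjusted p = 0.0542), FKBP2 at 0.14 (adjusted p = 0.226) and SSR4 at 0.17 (adjusted p = 0.0715). Over all genes the calls between the drugs went from 3623 to 919 (438 higher and 481 lower). For enzalutamide against vehicle they went from 1455 to 1936 (932 higher and 1004 lower). With enzalutamide against vehicle FKBP11 (0.31, adjusted p = 0.000422) and CREB3L4 (-0.29, adjusted p = 0.000207) kept their calls, DNAJC10 did not (-0.16, adjusted p = 0.161), and ATF6 (0.17) and SSR1 (0.24) were added as higher. The part of GC content and length in the fold changes was not tested further.

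**Figure D5:**
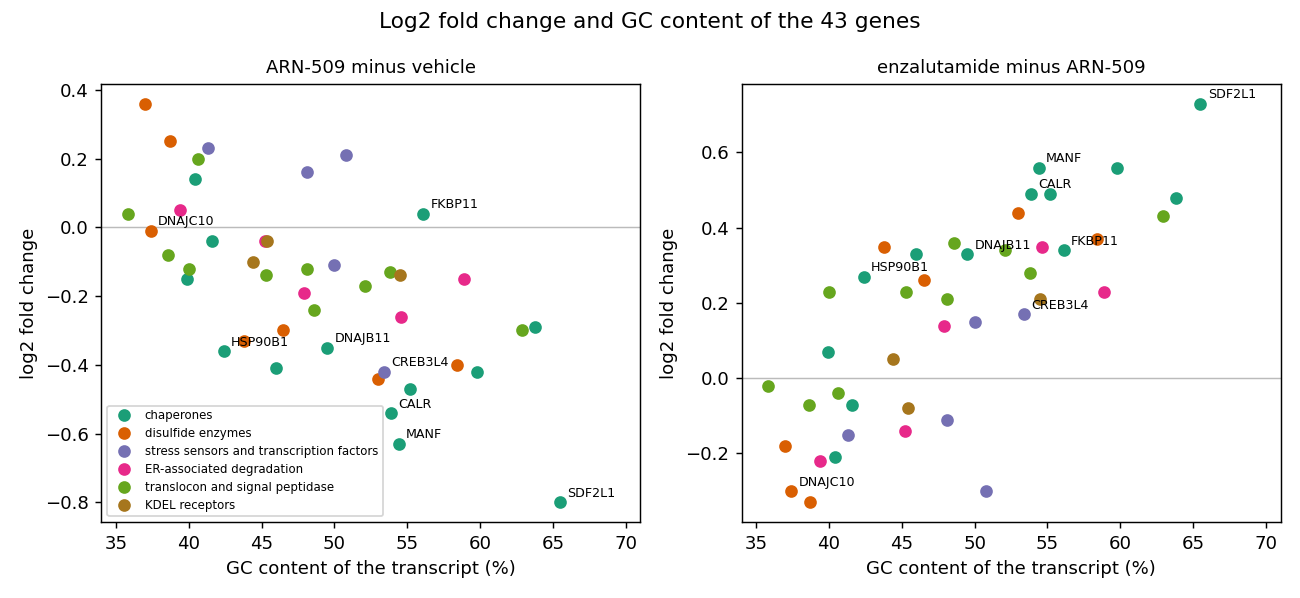
GC content of the transcript (x axis, %) against log2 fold change (y axis) of the 43 ER genes, coloured by role, for ARN-509 against vehicle (left) and enzalutamide against ARN-509 (right). Points fall from left to right in the first panel (rho = -0.63) and rise in the second (rho = 0.75), with SDF2L1 at 65.5% at the far right of both.

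Other genes of the pathway were read from 10 lists of 111 genes that are not among the 43. They were read before GC and length trends were removed, a removal that took all calls between the drugs from 3623 to 919. Their counts are to be read against the 16.1% of all genes that fell and the 14.7% that rose under ARN-509, and with lists this short none is read as standing apart from them. In the PERK branch, where PERK slows translation and raises ATF4, 2 of 10 fell under ARN-509 (median -0.32): TRIB3, a pseudokinase target of ATF4, by 0.56 ± 0.12 (adjusted p = 0.000399), and ATF4 by 0.34 ± 0.08 (adjusted p = 0.0026). The death-associated factor DDIT3 (CHOP) stood at -0.38 (adjusted p = 0.0511). With enzalutamide the median of the 10 was -0.14, with TRIB3 at -0.31 (adjusted p = 0.0912). Of 14 other ER folding genes tested 3 fell under ARN-509, among them the proline isomerase PPIB (-0.42 ± 0.10, adjusted p = 0.000979) and PDIA5 (-0.29 ± 0.07, adjusted p = 0.00108).

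The largest change among the other sensors was in CREB3L1, a membrane-bound factor of the CREB3L4 family. It stood at 8.05 ± 3.5 CPM with vehicle (SD, n = 15), 2.72 ± 0.89 CPM with enzalutamide (SD, n = 13) and 2.42 ± 0.976 CPM with ARN-509 (SD, n = 15). CREB3L1 fell by 1.59 ± 0.21 with enzalutamide (adjusted p = 4.79e-07) and by 1.64 ± 0.21 with ARN-509 (adjusted p = 5.8e-08), and differed by 0.05 between the drugs (adjusted p = 0.889). MBTPS2, the protease that frees ATF6, rose under ARN-509 (0.35 ± 0.10, adjusted p = 0.00629). In degradation 3 of 13 fell, DERL3 by 0.64 ± 0.16 (adjusted p = 0.00215), the adaptor UFD1L by 0.26 ± 0.06 and the extraction ATPase VCP by 0.21 ± 0.07.

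The catalytic signal peptidase subunits SEC11A and SEC11C fell under ARN-509 by 0.48 ± 0.09 (adjusted p = 0.000188) and 0.44 ± 0.10 (adjusted p = 0.000971). The non-catalytic SPCS1, SPCS2 and SPCS3 stood at -0.14, -0.08 and 0.04 in that comparison, and the difference between the genes was not tested. Of the oligosaccharyltransferase, which adds N-glycans, 2 of 9 fell, DDOST and RPN1 (by 0.22 ± 0.06 and 0.21 ± 0.06). Between the drugs, 6 of 9 were higher under enzalutamide than under ARN-509, beside 12.2% of all genes tested. In glycan trimming PRKCSH and GANAB, the glucosidase II subunits, fell by 0.25 ± 0.07 and 0.16 ± 0.05, while the cargo receptor LMAN1 rose by 0.28 ± 0.09. Of 17 genes of the COPII and COPI vesicle coats 5 fell, SEC13 by 0.33 ± 0.07 (adjusted p = 0.000291), and 1 rose. Of 8 genes of the signal recognition particle and its receptor 1 fell (SRP68, by 0.17 ± 0.05). Of 16 cytosolic and mitochondrial chaperones 3 fell, a share near the 16.1% of all genes, among them the chaperonin subunits CCT5 and TCP1, with a median of -0.17 under ARN-509 and -0.19 with enzalutamide.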

How the data were processed

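Counts of reads per gene in 44 tumor RNA libraries were deposited by the authors as 1 table of whole numbers with no normalization. Per the submitters' processing notes, the hg19 build was used with TopHat2 2.1.0, HTSeq 0.6.1, Picard 1.77 and bcl2fastq 1.8.4. Their order and settings, the annotation, the strand setting and how mouse reads were treated are details not given in the sources used here. The library kit does not mark strand, so reads of a gene and of an antisense partner cannot be told apart, and HSP90B1, XBP1 and SPCS2, which have near-identical copies elsewhere, are uncertain to that extent.

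Arms were taken from the labels: 15 vehicle, 13 enzalutamide and 15 ARN-509 libraries, of 3377450 to 30125004 counts. The test was edgeR 4.0.16 (limma 3.58.1, R 4.3.3): 13520 genes kept by filterByExpr, TMM scaling, a robust quasi-likelihood fit over all 3 arms, and Benjamini-Hochberg adjustment over all genes tested at 0.05. The test was two-sided, the SE is the log2 fold change divided by the root of F, and intervals are 95%. CPM are counts per 1000000 of the TMM-scaled total. P-values measure the spread between these samples. Pairs of libraries within an arm differed beyond sampling noise, with chi-square over degrees of freedom at least 3.42 (vehicle), 4.61 (enzalutamide) and 3.92 (ARN-509). The fit was tested on simulated data.

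Genes named are all 43 ER genes and, from each of 10 pathway lists, up to 3 with the smallest p for ARN-509 against vehicle, beside defining markers of other cell types. The members and lists were chosen with earlier results of these data known. Alternatives were DESeq2 1.42.0, limma voom with quality weights, library totals, other filters, all 44 libraries, 2 arms only, a replicate block, removal of GC and length trends, and leaving out each library. GC content and length came from GENCODE v29 by symbol (95.8% of tested genes). Relations used 100000 permutations. Promoters came from RefSeq (GRCh38.p14). Proteins were not used here.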

Additional observations from a re-analysis of the deposited data

How the results depend on the processing

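Over all genes or all 43 ER genes, counts of calls moved beyond 1.5 times under 2 settings (limma voom, and GC and length trends removed), leaving out 1 library aside, and the small counts for single roles moved under others too. With limma voom and quality weights, enzalutamide against vehicle gave 2551 genes and 5 of the 43 ER genes (1455 and 3 with edgeR), and enzalutamide against ARN-509 gave 5718 genes (3623). With trends on GC content and length removed, enzalutamide against ARN-509 gave 919 genes and 11 ER genes (24), with DNAJC10 at 0.11 and SSR1 at 0.24 turned in direction. With 1 library left out, calls ran from 1145 (without vehicle 1) to 1794 (without vehicle 11) over all genes and 3 to 4 ER genes for enzalutamide against vehicle, 3261 (without vehicle 8) to 5045 (without vehicle 10) and 14 to 22 for ARN-509 against vehicle, and 2680 (without enzalutamide 9) to 4164 (without enzalutamide 10) and 19 to 25 between the drugs. Of 5244 values of single ER genes under all alternatives, 5051 kept direction and side of the threshold, 130 lost the call, 61 gained one and 2 turned. Most of these values, 3698, came from fits with 1 library left out, which share nearly all their libraries with the main fit. Those gave 3578, 86, 34 and 0 in the same order, and the 1546 values under other settings gave 1473, 44, 27 and 2. The cause was not tested.

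With the replicate number as a block, ER gene calls were 3, 17 and 25 and calls over all genes 1197, 4084 and 3290, in the order enzalutamide against vehicle, ARN-509 against vehicle and enzalutamide against ARN-509. The block ended the call of CRELD2 under ARN-509 (-0.41, adjusted p = 0.059) and HSPA5 passed between the drugs (0.34, adjusted p = 0.0298). Deviations of same-numbered libraries had median correlations of 0.02, 0.06 and 0.03, with single pairs from -0.47 to 0.73, -0.50 to 0.73 and -0.41 to 0.50. These medians show no common pairing of the samples by number, and pairing was not tested further.

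Calls nearest the threshold ended under other settings too: CRELD2 with library totals (adjusted p = 0.0727), EDEM2 with library totals (0.0731), ATF6 with all 44 libraries (0.0619), ERO1LB with 2 arms only (0.0503), HSP90B1 between the drugs with library totals (0.0526) and KDELR1 with all 44 libraries (0.0947). KDELR3, at a vehicle median of 1.24 CPM, has the lowest level of the 43, and the precision of its fold change is limited by its counts.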
